A study of Homo sapiens with 9 samples.

Results

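The genes described here are 10 genes of bone morphogenetic protein (BMP) signalling: the ligands BMP2, BMP4 and BMP7, the receptors BMPR1A, BMPR1B and BMPR2, and the secreted antagonists NOG, CHRD, FST and GREM1. They were measured through every probe set that the array's annotation gives to exactly 1 gene of the 10, which came to 24 probe sets among 54613 that are not controls. These 24 cover 9 of the 10 genes. No probe set is listed under BMPR1A alone, so BMPR1A was not analysed here.

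The samples are 9 single-colour Affymetrix arrays of WA09, an established human embryonic stem cell line that all conditions share. In the differentiating condition (3 arrays) the cells had been cultured for 2 days with 1 µM retinoic acid (RA), and FGF was left out of their medium, so RA and the loss of added FGF cannot be told apart. In the damage condition (3 arrays) they had been exposed for 5 h to DOX (doxorubicin, which breaks DNA through topoisomerase II). The pluripotent condition (3 arrays) is untreated cells. RA and DOX arrays also differ in exposure, 2 days against 5 h, so treatment and time cannot be told apart between them. The protocols describe growth both on irradiated mouse embryonic fibroblasts and without feeder cells, and do not say which growth gave which array or that arrays came from separate cultures, so p-values reflect array-to-array spread that may be technical only.

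BMPs are secreted dimers of the TGF-beta superfamily. They bring type I receptors (BMPR1A, BMPR1B and others) and type II receptors (BMPR2 and others) together, and the activated type I receptor phosphorylates SMAD1, SMAD5 and SMAD9, which enter the nucleus with SMAD4 and switch on genes such as the ID family. Antagonists bind the ligand outside the cell and keep it from the receptors. In human embryonic stem cells added BMP is known to drive differentiation, often toward extra-embryonic fates, which FGF and NODAL or activin signals hold back.

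All levels below are log2 intensities normalised by RMA, and a change is the difference of 2 condition means with its standard error (SE) from a limma fit over all 54613 probe sets. A probe set is called higher or lower at a Benjamini-Hochberg adjusted p under 0.05 over all of them. Array medians lay between 4.62 and 4.68 and arrays of 1 condition correlated at 0.994 to 0.997. None of the 36 possible pairs held identical values. The third pluripotent array had the lowest limma array weight, 0.578, against 0.692 to 1.47 for the others. Of the 10 measured markers of pluripotent cells, 0 lay below the median probe set in any of the conditions. Probe sets differ in how brightly they bind, so levels are compared within a probe set only, and no measure of background was available: signal above background is not established for a level below the median probe set, and a fold against such a level may be a lower bound. In RNA from whole cultures, fewer cells of a kind and less RNA per cell cannot be told apart. The comparisons with pluripotent cells share the same 3 pluripotent arrays.

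After RA 3 of 7 ligand probe sets were called, those of BMP4 and BMP2, and 1 of 8 antagonist probe sets, of FST, a call lost in 5 of 6 fits that left out 1 array. After DOX 0 of 7 ligand and 3 of 8 antagonist probe sets were called, and none of the 9 receptor probe sets was called after either treatment. With RA, BMP4 rose 3.18-fold and BMP2 fell. With DOX, GREM1 rose 5.31-fold and 5.73-fold on its 2 probe sets. In all, 4 of 24 member probe sets (16.7%) were called after RA, 1 higher and 3 lower, where 2.95% of all probe sets were called, 1.47% higher and 1.48% lower. After DOX 3 of 24 (12.5%) were called, all higher, where 7.71% of all probe sets were called, 3.2% higher and 4.52% lower. Between RA and DOX directly 8 of 24 (33.3%) were called, 1 higher and 7 lower in RA, where 12.2% of all probe sets were called, 7.11% higher and 5.13% lower. The median change of the 24 was -0.04 after RA and 0.09 after DOX, beside 0.00 and 0.01 for all probe sets. Called probe sets belonged to 4 genes, BMP2, BMP4, FST and GREM1, and the other 5 measured genes had none. Genes with several probe sets count more than once in these shares. The members were chosen with earlier results of these data known, so these shares are a description and test nothing about the group. With 1 probe set per gene, the brightest, 1 of the 9 measured genes rose and 1 fell after RA, where 4.84% of all genes were called. After DOX 1 of the 9 rose and 0 fell, where 12.1% of all genes were called. Between RA and DOX 1 was higher and 3 were lower in RA cells, where 18% of all genes were called.

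**Figure D1:**
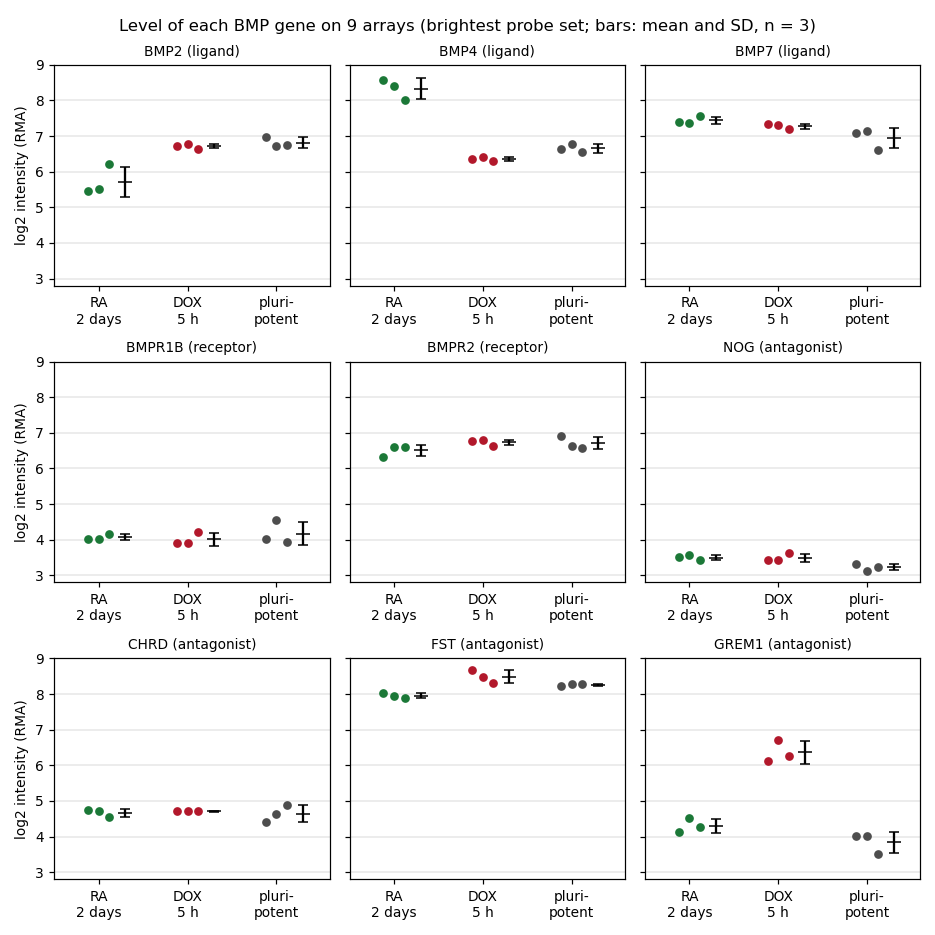
Log2 intensity (y axis, the same scale in each panel) of the brightest probe set of each measured gene on the RA, DOX and pluripotent arrays, 1 point per array with the mean and SD of 3 beside it. BMP4 is high and BMP2 low on the 3 RA arrays, GREM1 is high on the 3 DOX arrays, and the receptor panels are level.

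The 2 antagonists that differed between the treatments, GREM1 and FST, are shown with the 250 bases before an annotated start site, as the region that a promoter would occupy. The sequences are those of RefSeq on GRCh38.p14, read 5′ to 3′ on the gene's strand, which is plus for both. Capitals mark matches, on the minus strand, to hexamers that nuclear receptors such as the RA receptors can bind (AGGTCA in GREM1, AGTTCA in FST).
GREM1, chr15:32717754-32718003: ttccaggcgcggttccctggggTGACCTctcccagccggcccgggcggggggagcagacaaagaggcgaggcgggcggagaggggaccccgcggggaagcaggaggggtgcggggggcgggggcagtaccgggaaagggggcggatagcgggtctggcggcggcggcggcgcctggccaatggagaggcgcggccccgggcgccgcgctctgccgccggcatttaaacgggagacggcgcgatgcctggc
FST, chr5:53480379-53480628: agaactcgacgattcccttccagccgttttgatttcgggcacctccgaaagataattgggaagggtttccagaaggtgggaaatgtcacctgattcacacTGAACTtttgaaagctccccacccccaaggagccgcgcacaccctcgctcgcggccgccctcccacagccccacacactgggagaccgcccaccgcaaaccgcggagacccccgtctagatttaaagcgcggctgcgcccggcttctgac
The patterns searched on both strands of the 250 bases before each start site were the hexamers AGGTCA and GGGTCA and AGTTCA, the TATA-box letters TATAAA, and the p53 half-site consensus. Each was counted on its own, whether or not its matches overlap those of another. Of all 35116 windows in the table, 12.1% held AGGTCA, 12.1% GGGTCA, 8.8% AGTTCA, 10.7% TATAAA and 5.57% the p53 half-site. The table had entries for 7 of the 10 genes, with 12 windows. The GREM1 and FST windows printed above held 1 hexamer each and neither TATAAA nor a p53 half-site. The table's other GREM1 window held 1 AGGTCA and 1 GGGTCA. Of the 3 BMP4 windows 1 held AGTTCA, and the p53 half-site was found in 1 of the 12 windows, at a BMPR1B start. That BMPR1B window also held 1 GGGTCA. The BMPR1A window held 2 AGGTCA, 1 GGGTCA and 1 TATAAA. The windows of BMPR2 and CHRD held none of the patterns. These matches describe letters in a window and are not binding sites.

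BMP4 encodes a ligand that signals through BMPR1A or BMPR1B with BMPR2 and is widely used to induce mesoderm, trophoblast-like and amnion-like cells from stem cells. It lies on chromosome 14 at 53949736 to 53956891 (GRCh38.p14, minus strand). Its 1 probe set, 211518_s_at, read 8.58, 8.40 and 8.01 on the RA arrays, 6.35, 6.42 and 6.29 on the DOX arrays, and 6.65, 6.79 and 6.54 on the pluripotent arrays. Every RA array lay above every other array, and the DOX arrays lay just below the pluripotent ones without overlap. The RA change was 1.67 ± 0.13 (SE), a 3.18-fold rise (limma adjusted p = 3.77e-05), with means of 8.33 ± 0.29 and 6.66 ± 0.12 (SD, n = 3 RA and 3 pluripotent arrays). The DOX change was -0.31 ± 0.13 and was not called (adjusted p = 0.226, 95% interval -0.59 to -0.02). RA cells exceeded DOX cells 3.93-fold (1.97 ± 0.13, adjusted p = 3.27e-06).

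BMP2 encodes the close relative of BMP4 that uses the same receptors, and it moved the opposite way. It lies on chromosome 20 at 6767686 to 6780246. Probe set 205289_at read 5.45, 5.50 and 6.21 with RA, 6.74, 6.78 and 6.65 with DOX, and 6.98, 6.72 and 6.76 in pluripotent cells. Probe set 205290_s_at read 5.05, 5.34 and 5.60 with RA, 6.92, 6.79 and 6.77 with DOX, and 6.86, 6.88 and 6.85 in pluripotent cells. On both probe sets all 3 RA arrays lay below the other 6, and the third RA array lay closest to them. The RA change was -1.10 ± 0.17 on 205289_at (2.14-fold lower, adjusted p = 0.00490) and -1.53 ± 0.12 on 205290_s_at (2.89-fold lower, adjusted p = 3.62e-05). After DOX the changes were -0.10 and -0.04, neither called, with 95% intervals of -0.48 to 0.28 and -0.30 to 0.22. RA cells were also lower than DOX cells, 2.00-fold on 205289_at (adjusted p = 0.00288) and 2.81-fold on 205290_s_at (adjusted p = 1.39e-05).

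BMP7, a ligand of the OP-1 branch that also signals through ACVR1, was covered by 4 probe sets and was not called in any comparison. It lies on chromosome 20 at 57168753 to 57266641. Its brightest probe set, 209590_at, read 7.40, 7.37 and 7.56 with RA, 7.33, 7.31 and 7.20 with DOX, and 7.10, 7.14 and 6.62 in pluripotent cells. All treated arrays lay above the pluripotent ones, of which the third was lowest. The RA change was 0.49 ± 0.13 (adjusted p = 0.0791) and the DOX change 0.33 ± 0.13 (adjusted p = 0.179). Without the third pluripotent array these were 0.32 and 0.16. The RA change on 209590_at was called with 1 probe set per gene (adjusted p = 0.0436), with a trended and robust spread (adjusted p = 0.0424) and after a further quantile normalization (adjusted p = 0.0471). Over the 4 probe sets the RA changes ran from -0.02 to 0.49 and the DOX changes from 0.13 to 0.33.

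**Figure D2:**
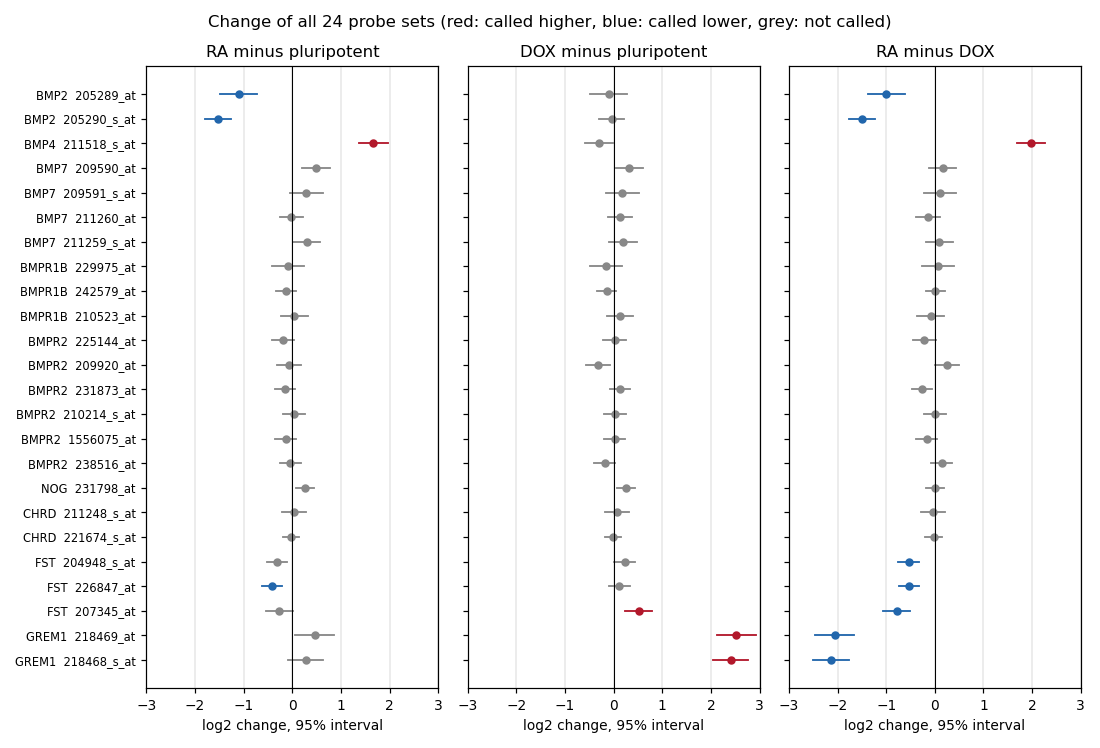
Log2 change of each of the 24 probe sets with its 95% interval (x axis) for RA minus pluripotent, DOX minus pluripotent and RA minus DOX, coloured by call. BMP4 stands alone on the right after RA at 1.67, both BMP2 probe sets stand on the left, GREM1 stands at 2.41 and 2.52 after DOX, and the 9 receptor probe sets lie between -0.32 and 0.26 in all 3 panels.

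No receptor probe set passed the test in any comparison over all 9 arrays. BMPR2, the type II receptor, lies on chromosome 2 at 202376327 to 202567749 and had 6 probe sets. BMPR1B, a type I receptor, lies on chromosome 4 at 94757955 to 95158450 and had 3. The brightest BMPR2 probe set, 225144_at, read 6.34, 6.59 and 6.61 with RA, 6.76, 6.79 and 6.64 with DOX, and 6.90, 6.63 and 6.59 in pluripotent cells, so the treated and pluripotent ranges overlapped. Limma called 0 of the 9 receptor probe sets in each comparison, and at an unadjusted p under 0.05 there were 0 after RA, 1 after DOX and 2 between RA and DOX. The share of all probe sets or genes under that unadjusted limit was not counted, here or below. Changes ran from -0.19 to 0.04 after RA and from -0.32 to 0.13 after DOX. The 95% intervals of all 9 lay within -0.43 to 0.32 after RA and within -0.57 to 0.40 after DOX. The lowest change after DOX was that of BMPR2 probe set 209920_at, which read 5.80, 5.39 and 5.43 with DOX against 5.95, 5.73 and 5.91 in pluripotent cells. Its change of -0.32 ± 0.11 was not called (adjusted p = 0.128), but without the first damage array it was -0.45 and called (adjusted p = 0.0186). Without that array RA minus DOX on 209920_at was also called, at 0.39 (adjusted p = 0.0249), beside 0.26 with all arrays. Of the 6 BMPR2 probe sets 3 were higher with RA than with DOX, and the brightest was lower. With all arrays RA minus DOX was -0.22 on 225144_at and -0.27 on 231873_at, neither called (adjusted p = 0.249 and 0.0925). On both, the RA arrays lay below all DOX arrays. Over the 9 receptor probe sets RA minus DOX ran from -0.27 to 0.26, with 95% intervals within -0.47 to 0.51. The brightest BMPR1B probe set, 229975_at, read 4.03, 4.03 and 4.17 with RA, 3.92, 3.90 and 4.21 with DOX, and 4.03, 4.55 and 3.94 in pluripotent cells. All BMPR1B probe sets were dim, with condition means of 3.28 to 4.17, below the median probe set, and are not shown to be above background. BMPR2 probe sets 1556075_at and 238516_at, with means of 3.88 and 3.67 over all arrays, lay below it too, and the same limit applies.

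Among antagonists GREM1 rose after DOX and FST differed between the treatments. GREM1 encodes gremlin 1, a cystine-knot protein that binds BMP2, BMP4 and BMP7, and lies on chromosome 15 at 32718004 to 32745106. Probe set 218469_at read 6.11, 6.72 and 6.25 with DOX, against 4.01, 4.01 and 3.50 in pluripotent cells. Probe set 218468_s_at read 5.56, 6.06 and 6.13 with DOX, against 3.78, 3.30 and 3.45 in pluripotent cells. On both probe sets the 3 DOX arrays lay well above the other 6 arrays. The DOX change was 2.52 ± 0.18 on 218469_at (5.73-fold, adjusted p = 9.87e-06) and 2.41 ± 0.16 on 218468_s_at (5.31-fold, adjusted p = 6.48e-06). The pluripotent means of 3.84 and 3.51 lay below the median probe set, so both folds may be lower bounds.

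With RA the GREM1 probe sets were not called. They read 4.13, 4.52 and 4.25 on 218469_at and 3.83, 3.91 and 3.60 on 218468_s_at. The RA arrays lay above the pluripotent ones on 218469_at and overlapped them on 218468_s_at. Their changes of 0.46 (adjusted p = 0.301) and 0.27 (adjusted p = 0.586) were not called, with 95% intervals of 0.06 to 0.86 and -0.09 to 0.64. RA cells were lower than DOX cells, with differences of -2.06 and -2.14 (adjusted p = 2.93e-05 and 1.04e-05). The RA means of 4.30 and 3.78 also lay below the median probe set and are not shown to be above background. Both differences from DOX may therefore be lower bounds in size.

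Fibroblasts are a known source of GREM1 in many tissues, so their markers are given beside it. Of 17 measured fibroblast and stromal markers, each read through its brightest probe set, 5 rose and 1 fell after DOX, where 4.67% of all genes rose and 7.4% fell. Their summed linear intensity was 15249 to 16161 on the DOX arrays, against 8998 to 9772 on the pluripotent arrays. On the RA arrays it was 6651 to 6940. The contractile genes TAGLN and ACTA2 rose by 1.59 and 1.70 on the log2 scale after DOX and the collagen gene COL1A1 by 1.08. S100A4 rose by 0.41 and VIM by 0.36, while PDGFRA fell by 0.42. After RA, COL1A1 also rose, by 1.00, and COL3A1 by 0.57, while TAGLN, VIM and COL6A3 fell by 1.76, 1.30 and 0.73. COL6A3 lay below the median probe set with RA, at 4.18, so its fall may be a lower bound. The sum weighs bright genes most, among them TAGLN and VIM, at 10.68 and 12.09 in pluripotent cells. On the DOX arrays 14 of the 17 lay above the median probe set, among them THY1 at 9.60, COL1A2 at 9.43, FBLN1 at 7.73, PDGFRB at 5.74, COL3A1 at 5.38 and DCN at 4.81. The 3 below it were LUM at 3.19, FAP at 3.55 and POSTN at 3.77. On the pluripotent arrays 3 of the 17 lay below it too. The part of such cells in the GREM1 result was not tested.

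FST encodes follistatin, which binds activins most tightly and some BMPs, and lies on chromosome 5 at 53480629 to 53487134. Its brightest probe set, 204948_s_at, read 8.03, 7.94 and 7.88 with RA, 8.68, 8.47 and 8.31 with DOX, and 8.23, 8.27 and 8.28 in pluripotent cells. Probe set 226847_at read 7.35, 7.40 and 7.43 with RA, 7.97, 8.02 and 7.80 with DOX, and 7.98, 7.77 and 7.68 in pluripotent cells. Probe set 207345_at read 5.63, 5.91 and 5.93 with RA, 6.75, 6.58 and 6.49 with DOX, and 6.29, 6.12 and 5.85 in pluripotent cells. On all 3 probe sets the RA arrays lay below all DOX arrays, and the pluripotent means lay between the means of the treatments.

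Between the treatments the FST difference was called on each probe set: RA minus DOX was -0.54 on 204948_s_at (adjusted p = 0.00338), -0.54 on 226847_at (adjusted p = 0.00330) and -0.78 on 207345_at (adjusted p = 0.00192). Against pluripotent cells fewer probe sets were called. After RA only 226847_at was called, at -0.42 ± 0.09 (adjusted p = 0.0402), beside -0.31 (adjusted p = 0.144) and -0.26 (adjusted p = 0.433) for 204948_s_at and 207345_at. After DOX only 207345_at was called, at 0.52 ± 0.12 (adjusted p = 0.0288), beside 0.23 (adjusted p = 0.214) and 0.12 (adjusted p = 0.558) for 204948_s_at and 226847_at. Leaving out 1 array ended the RA call in 5 of 6 cases and the DOX call in 4 of 6 cases. Over all 6 cases the RA values ran from -0.48 to -0.33 and the DOX values from 0.40 to 0.61. The RA call was kept only without the third pluripotent array (-0.48, adjusted p = 0.0334). The DOX call was kept without the third damage or the first pluripotent array and lost without the first damage (0.44), the second damage (0.53), the second pluripotent (0.53) or the third pluripotent array (0.40).

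**Figure D3:**
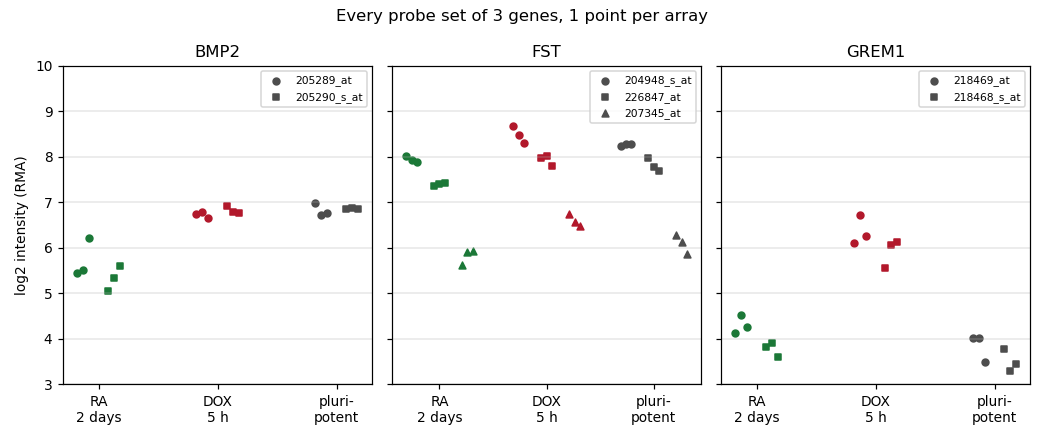
Log2 intensity (y axis) of every probe set of BMP2, FST and GREM1 on the RA, DOX and pluripotent arrays, 1 point per array and 1 marker shape per probe set. The probe sets of a gene sit at different heights but shift the same way, BMP2 lower with RA, GREM1 higher with DOX, and FST higher with DOX than with RA.

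NOG and CHRD are the classical antagonists of the embryonic organizer, and no probe set of either was called. NOG lies on chromosome 17 at 56593699 to 56595611, and its 1 probe set, 231798_at, read 3.50, 3.56 and 3.42 with RA, 3.42, 3.42 and 3.61 with DOX, and 3.31, 3.14 and 3.24 in pluripotent cells. All treated arrays lay above the pluripotent ones, by 0.27 ± 0.08 with RA (adjusted p = 0.162) and 0.26 ± 0.08 with DOX (adjusted p = 0.0993), at levels below the median probe set on every array. The DOX change of NOG was called where the probe sets of each gene were averaged before the fit (0.26, adjusted p = 0.0427). CHRD lies on chromosome 3 at 184380054 to 184390739 and had 2 probe sets. The brighter, 211248_s_at, read 4.74, 4.72 and 4.54 with RA, 4.72, 4.70 and 4.70 with DOX, and 4.41, 4.62 and 4.89 in pluripotent cells, so the ranges overlapped. CHRD changes lay between -0.04 and 0.07 in all 3 comparisons, and their 95% intervals lay within -0.29 and 0.32. Over all arrays 211248_s_at averaged 4.67, close to the median probe set at 4.66. The other, 221674_s_at, averaged 4.10, below it, and is not shown to be above background.

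Groups whose arrays do not overlap were more frequent than calls. The RA and pluripotent arrays did not overlap for 9 of 24 member probe sets (37.5%), beside 16.7% of all probe sets. The DOX and pluripotent arrays did not overlap for 8 of 24 (33.3%), beside 21.3%, and the RA and DOX arrays for 11 of 24 (45.8%), beside 26.4%. The way the members were chosen limits these shares too.

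The other genes of the pathway were read with 1 probe set per gene, the brightest. These lists and the marker lists were also chosen with earlier results of these data known, so their counts are descriptions only. At that level 4.84% of all genes were called after RA (2.42% higher, 2.43% lower), 12.1% after DOX (4.67% higher, 7.4% lower) and 18% between RA and DOX (10.7% higher, 7.26% lower in RA cells). The other ligands were not called: of 10 measured BMP and GDF ligand genes limma called 0 after RA, 0 after DOX and 0 between them (0, 0 and 1 at an unadjusted p under 0.05), with changes of -0.17 to 0.21 after RA, and 5 of the 10 lay below the median probe set. Of the 8 other receptors and co-receptors 0 were called after RA (3 at an unadjusted p under 0.05) and 2 fell after DOX. These were the type II receptor gene ACVR2A, which fell by 0.56 (adjusted p = 0.0145), and the type I receptor gene ACVR1, which fell by 0.42 (adjusted p = 0.0373). Between RA and DOX 3 were higher in RA cells, the co-receptor gene RGMB by 0.90, ACVR2A by 0.48 and ACVR2B by 0.42.

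Among 17 other antagonists, binding proteins and CHRD-cleaving proteases CER1, whose product cerberus binds NODAL and BMP4, moved farthest. It averaged 4.52 with RA, 7.55 with DOX and 5.58 in pluripotent cells. Its changes were -1.05 after RA (adjusted p = 2.87e-04) and 1.97 after DOX (adjusted p = 1.27e-06), and RA minus DOX was -3.02 (adjusted p = 3.00e-08). Its mean with RA lay below the median probe set, so both differences that involve RA may be lower bounds in size. FSTL1, a secreted follistatin relative, rose by 0.39 after RA (adjusted p = 0.0151) and was 0.43 higher with RA than with DOX. The other 15 genes were not called in any comparison, and 10 of the 17 lay below the median probe set.

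Inside the cell, 4 of 11 transducers and regulators rose and 1 fell after RA. The pseudoreceptor gene BAMBI rose by 1.63, SMAD9, which encodes a receptor-activated SMAD, by 1.12 and the inhibitory SMAD6 by 0.98, while the other inhibitory SMAD gene, SMAD7, fell by 0.90. After DOX 2 rose and 1 fell: SMAD7 rose by 0.93 and BAMBI by 0.65, and SMAD4, the shared partner, fell by 0.61. Between RA and DOX 5 were higher and 1 lower in RA cells, with SMAD9 at 1.69, SMAD6 at 1.18, BAMBI at 0.98 and SMAD7 at -1.83. SMAD9 lay below the median probe set in pluripotent and DOX cells, at 4.59 and 4.02, so its changes may be lower bounds. BMP target genes rose in 8 of 11 cases after RA and in 6 of 11 after DOX, with 0 lower in each. With RA the median change of the 11 was 1.30, led by GATA3 (3.20), ID4 (2.30), ID3 (2.22) and DLX5 (1.88), beside 0.00 for all genes. With DOX it was 0.49, led by ID4 (1.68), GATA3 (1.34), ID2 (1.18) and ID3 (1.08). Between RA and DOX 6 were higher in RA cells and 0 lower, led by GATA3 (1.86), DLX5 (1.77), ID3 (1.13) and MSX2 (1.02). DLX5 lay below the median probe set in pluripotent and DOX cells, at 3.72 and 3.83, so its changes may be lower bounds.

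**Figure D4:**
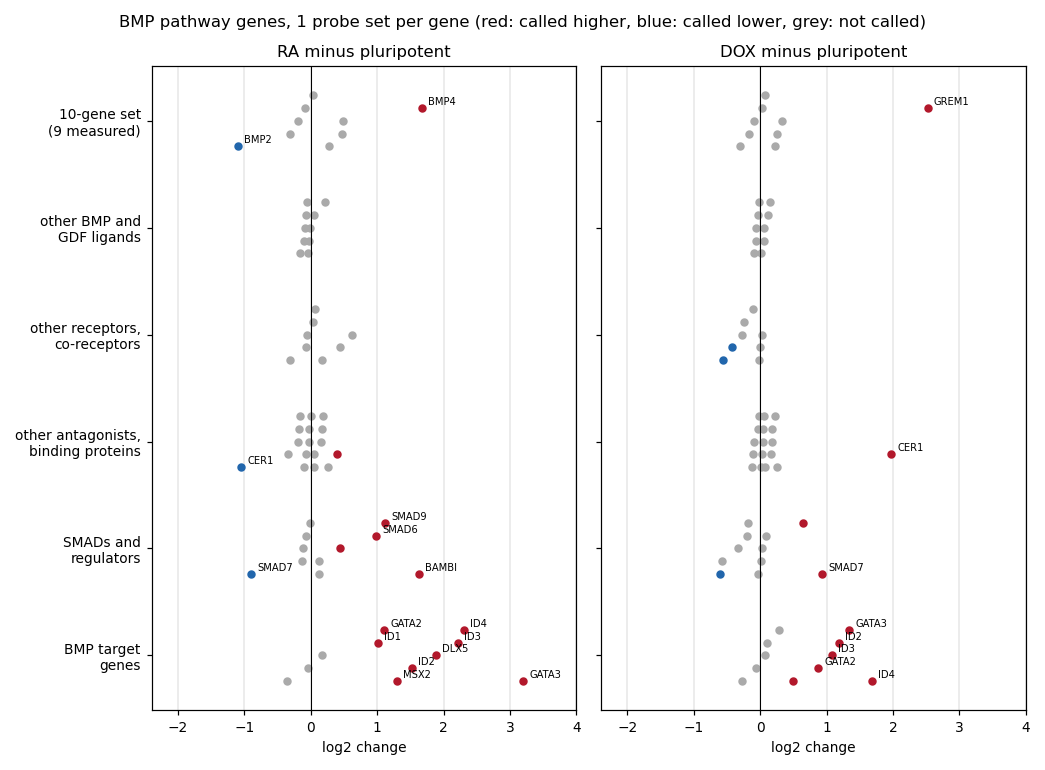
Log2 change (x axis) after RA and after DOX of BMP pathway genes, 1 point per gene through its brightest probe set, grouped by role and coloured by call; lists are offset vertically only to separate points. Other ligands lie close to 0 in both panels, target genes lie mostly to the right, and CER1 and SMAD7 lie on opposite sides after the treatments.

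Markers of trophoblast and amnion, fates that BMP is known to promote, are given beside BMP4. Of 15 measured markers 6 rose, 0 fell and 9 were not called after RA, where 2.42% of all genes rose. Their summed linear intensity was 5321 to 6629 on the RA arrays, against 3375 to 3473 on the pluripotent arrays. TFAP2A rose by 4.55 and GATA3 by 3.20, while 6 of the 15, among them CDX2, CGA and ELF5, lay below the median probe set with RA. After DOX, where BMP4 was not called, 6 of the 15 also rose and 0 fell, where 4.67% of all genes rose, and the sum was 4580 to 4646 on the DOX arrays. GATA2 and GATA3 stand in this list and among the BMP target genes. The part of such cells in the BMP4 result was not tested.

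The genes most like the leading members were found by Pearson correlation over the 9 arrays, among the brightest probe sets of 19766 other genes. The arrays fall into 3 conditions, so the 9 points are not independent and the values are a description only. For BMP4 they were FHDC1 (0.992), HSD17B4 (0.990) and CCND2 (0.989), and 115 genes exceeded 0.95. For GREM1 on 218468_s_at they were EPHA2 (0.991), UFM1 (0.991) and ZNF697 (0.990), with 181 genes over 0.95. For BMPR2 on 209920_at, the receptor probe set with the highest F value though it was not called, they were KCNK6 (0.961), TRAIP (0.943) and NUP42 (0.941), with 1 gene over 0.95.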

How the data were processed

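RNA of 9 arrays was measured, 3 per condition. The deposited values are log2 intensities per probe set, made by the authors with RMA in affy per the submitters' processing notes (versions: not given in the sources used here). That method corrects background, quantile-normalises the arrays and summarises probes on the log2 scale, which pulls low values together. The table's 62 control probe sets were left out, and 41091 probe sets had 1 gene, 1801 several and 11721 none. The members and gene lists were chosen with earlier results of these data known. Limma 3.58.1 in R 4.3.3 was fitted to all 9 arrays with no filter (residual degrees of freedom 6, prior 4.64) and was tested on simulated data. Each member's brightest probe set and every called one are given in full, and up to 4 called genes per pathway list and comparison, those with the largest change. The number of arrays limits the precision. Deviations from the condition means correlated weakly between DOX and pluripotent arrays of the same number (0.168, 0.103 and 0.103). Among arrays of other conditions, 8 of 9 arrays correlated best with one of their own number. The labels state no pairing, so whether the arrays were paired is not established. Alternatives concerned scaling, spread, filter, probe set choice, compared arrays, replicate block and left-out arrays. Windows and positions are RefSeq's, on GRCh38.p14.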

Additional observations from a re-analysis of the deposited data

How the results depend on the processing

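Of 966 single changes recomputed under the alternatives, 947 kept their side of the threshold, 11 lost a call, 8 gained one and 0 reversed. For 47 of them, uncalled in the main fit and in the alternative, the sign changed. The calls of BMP4 and BMP2 after RA and of GREM1 after DOX held in every alternative run, with RA changes of 1.54 to 1.83 for BMP4. With the replicate block 4, 3 and 8 member probe sets were called after RA, after DOX and between RA and DOX, and no member call changed. Deviations of RA and pluripotent arrays of the same number correlated at -0.051, 0.275 and 0.208, and those of RA and DOX arrays at 0.061, 0.103 and -0.07. These values do not establish a pairing either. After DOX 1 member gene was called in place of 2 with 1 probe set per gene and with only the compared conditions, where FST on 207345_at had an adjusted p of 0.0528, and 1 to 2 when arrays were left out. With only the compared conditions the RA call of FST on 226847_at was lost too (adjusted p = 0.0675). Leaving out arrays gave 2597 to 4748 called probe sets after DOX (4211 with all arrays), 1279 to 3028 of them lower (2466 with all arrays), and 1039 to 1353 after RA (1611 with all arrays), 495 to 625 higher and 501 to 752 lower (802 and 809 with all arrays). Averaging the probe sets of each gene gave 3 member genes called after DOX, with FST called after RA (-0.33, adjusted p = 0.0375) and DOX (0.29, adjusted p = 0.0398) and NOG after DOX (0.26, adjusted p = 0.0427). The DOX count without the first or the second pluripotent array, and the RA count without the first or the second RA array or the first pluripotent array, moved by more than 1.5 times. The cause of these changes was not tested. Signal over background could not be judged from these values.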

Other observations

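Markers of the germ layers were read through 1 probe set per gene, a level at which 4.84% of all genes were called after RA (2.42% higher, 2.43% lower), 12.1% after DOX (4.67% higher, 7.4% lower) and 18% between RA and DOX (10.7% higher, 7.26% lower in RA cells). Of 9 mesoderm markers 0 were called after RA by limma (2 at an unadjusted p under 0.05), KDR (log2 change -0.63) and PDGFRA (-0.42) fell after DOX, and PDGFRA was 0.39 higher with RA than with DOX. Of 10 neuroectoderm markers 2 fell after RA, OTX2 (-1.56) and NES (-0.76), and 1 rose after DOX, NES (0.94). RA minus DOX was called for 3 of them, NES (-1.70), OTX2 (-1.14) and TUBB3 (-0.31). Of 8 endoderm markers 1 rose and 1 fell after RA, HHEX (3.29) and CER1 (-1.05), and 3 rose after DOX, CER1 (1.97), AFP (0.59) and CXCR4 (0.31). HHEX in pluripotent cells (4.56) and CER1 with RA (4.52) lay below the median probe set, so differences from these levels may be lower bounds. RA minus DOX was called for 4 of the 8, HHEX (3.05), CER1 (-3.02), AFP (-0.86) and CXCR4 (-0.60). Of 10 pluripotent cell markers PRDM14 fell by 1.29 after RA and SOX2 fell by 0.46 after DOX. Between RA and DOX SOX2 (0.36), LIN28A (0.35) and DNMT3B (0.31) were higher in RA cells and PRDM14 (-0.82) was lower.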
